A study of Drosophila melanogaster with 8 samples.

Results

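Septate junctions seal insect epithelia, and 10 of the genes that build them were followed through the tissues of whole *Drosophila melanogaster* larvae. The genes were picked by symbol among the 12610 of a single-nucleus RNA-seq table, and all 10 were found. They comprise 3 genes of the gut type, or smooth junction (mesh, Ssk and Tsp2A), and 7 of the ectodermal type, or pleated junction (Nrx-IV, cora, Nrg, kune, sinu, Lac and scrib). The 8 samples form 1 group of the genotype w1118, a white-eyed laboratory strain with no transgene and no treatment. Each sample pooled 16 whole wandering 3rd instar larvae, 8 male and 8 female, taken 5 days after egg deposition. Nuclei of each pool made 1 droplet library, and the table sorts 30819 nuclei into 28 clusters that the authors named by tissue. No label ties a library number to a sample, so libraries 1 to 8 serve as replicates of the 1 group.

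A septate junction runs around the side of an epithelial cell and limits leakage between neighbours, as tight junctions do in vertebrates. Epithelia of ectodermal origin (epidermis, trachea, imaginal discs, salivary gland and hindgut) and the glia that wrap the nervous system carry the pleated form, built from adhesion proteins, claudin-like proteins and cytoplasmic scaffolds. The midgut and the Malpighian tubules carry the smooth form, in which Mesh, Snakeskin and Tetraspanin 2A depend on each other. Several proteins of the pleated form also act outside junctions, in axons or in cell polarity.

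Libraries held 3090 to 5405 nuclei (median 3776.5) and 3815620 to 6488760 counts left after the authors' subtraction of free RNA, with 804 to 1069 counts in the median nucleus. A barcode that also occurred in another library was carried by 2236 nuclei (7.26%), most of them in clusters named mixed (25.8% of nuclei there against 1.33% elsewhere). Levels are CPM (counts scaled to 1e6 in all) of a cluster's summed counts in 1 library, given as mean ± SD over the libraries with at least 10 nuclei of that cluster. A level in such a sum cannot tell fewer cells of a type from less RNA per cell, and levels are compared between clusters for 1 gene and not between genes.

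The cluster names were checked against marker genes. Cluster 3, named enterocytes, had the highest share of 5 digestive enzyme genes (0.738% of its counts), led by Jon99Cii at 4541 CPM and Jon65Aiii at 2045 CPM. It also ranked second of the 28 for 6 salivary glue genes (1.96%) and behind 3 other clusters for 4 fat body genes (2.66%). Among the muscle genes it ranked 2 for Act57B (4194 CPM), 3 for Mhc (1722 CPM) and Mlp84B (607 CPM) and 5 for sals. For the gut identity genes GATAe (35.4 CPM), cad and byn its ranks were 2, 3 and 6. For the Malpighian tubule genes Uro, Irk2 and Irk3 they were 2, 4 and 4. Cluster 21, named gut intestinal stem cells, was the highest for the midgut factor GATAe (150.2 CPM), for cad (111 CPM) and for the progenitor factor esg (109 CPM). For the other genes of the same marker lists it ranked 9 for Dl (664 CPM), 19 for sc (1.28 CPM) and 12 for byn (1.26 CPM).

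Cluster 24 bears the name gonad and is called by its number here, since its markers were mixed. It was the highest cluster for the germline genes vas (61.4 CPM) and nos (59.3 CPM), but tj, a marker of somatic gonad cells, stood at 2.25 CPM. It ranked second for esg (57.6 CPM) and cad (71.8 CPM) and behind 2 others for GATAe (30.5 CPM) and for the digestive enzyme genes (0.112% of counts). Its rank was 10 for Dl, 5 for sc and 7 for byn. The genes most raised in it were CG13159, nur and Osi6, and none of them was on a marker list.

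**Figure D1:**
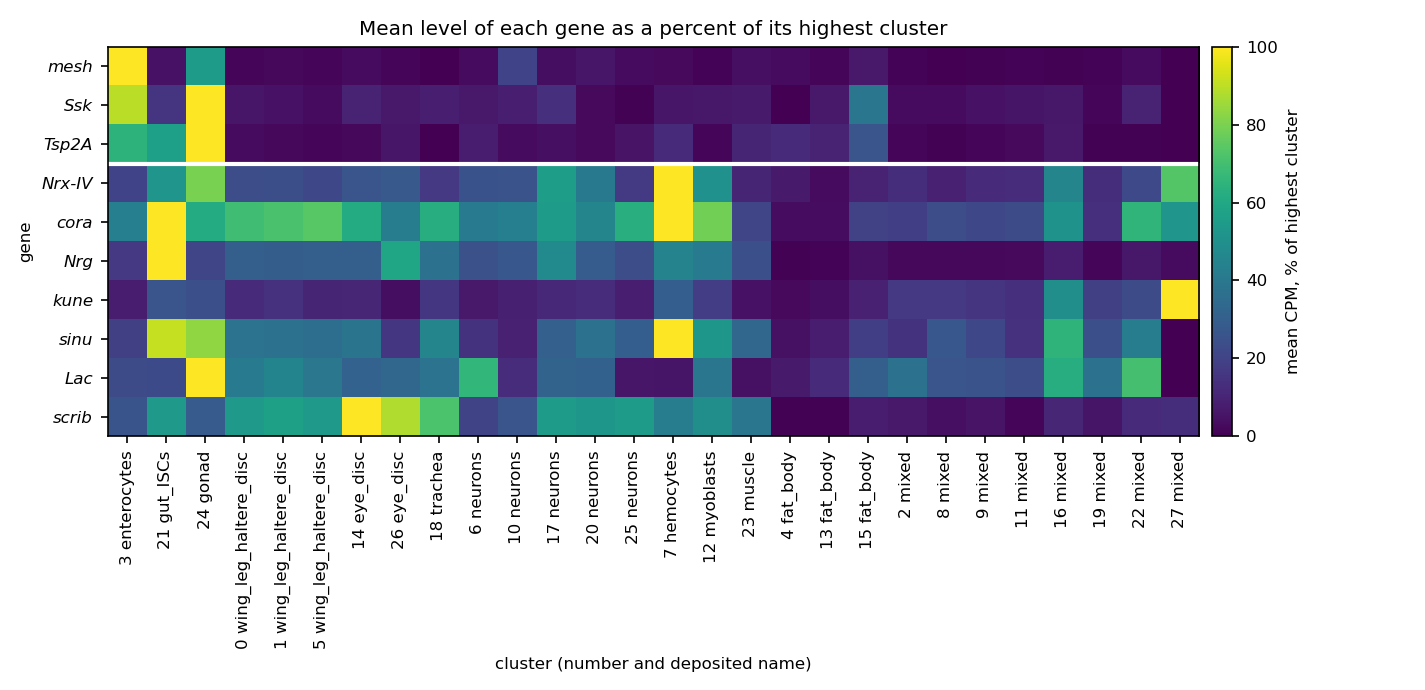
Mean level of the 10 genes (rows, gut type above the white line) in the 28 clusters (columns), as a percent of each gene's highest cluster on a colour scale from 0 to 100. The gut type genes are bright in clusters 3 and 24, Tsp2A also in 21, whereas the ectodermal type genes spread over most columns and are dark in fat body clusters 4 and 13.

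The gut type genes gave few counts, and their levels stood far above the median in few clusters. Over all nuclei they summed to 339 counts for mesh, 227 for Ssk and 251 for Tsp2A, while the 7 ectodermal type genes summed to between 948 (sinu) and 40403 (Nrg). These sums say how many counts each gene rests on and are not levels compared between genes. In their median cluster the gut type genes stood at 2.79 CPM for mesh, 3.20 CPM for Ssk and 2.15 CPM for Tsp2A. Levels far above these medians occurred in clusters 3 and 24 for all 3, in cluster 21 for Tsp2A, in cluster 15 for Ssk and Tsp2A, and in cluster 10 for mesh.

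The gene mesh (3R, 31178389 to 31195762 in BDGP6, minus strand) encodes a transmembrane adhesion protein, and its locus overlaps bnk on the opposite strand. In enterocytes the lowest libraries, 5 and 7, were at 0, the median was 32.7 CPM and the highest, library 1, was at 787 CPM, which gave 123 ± 269 CPM (n = 8), the highest mean of the 28 clusters. Library 1 alone set that mean above every other library. Its 121 counts came from 22 nuclei, of which the highest gave 23.3%, so they did not rest on 1 nucleus. Library 4, with 1508 of the 2055 enterocyte nuclei, stood at 33.2 CPM.

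In cluster 24 mesh was at 0 in library 7 and at 45.7, 67.6, 71.0, 88.5 and 135 CPM in the other 5 libraries, or 68.0 ± 44.8 CPM (n = 6). The signal was thus spread more evenly over libraries than in enterocytes. The third mean, 25.0 ± 66.6 CPM in neuron cluster 10, rested on 1 nucleus of library 2, which held 41.4 of that library's 43.2 counts. In stem cells mesh was held in 2 of 8 libraries (5.93 ± 11.5 CPM), and the disc clusters were at 1.85 to 2.68 CPM.

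Ssk (3L, 20188522 to 20189779, plus strand) encodes a small multi-pass membrane protein and overlaps CG42674 on the opposite strand. In cluster 24 it was at 0 in libraries 1 and 7 and at 39.1, 43.5, 110.3 and 111 CPM in the other 4 (50.6 ± 50.003 CPM, n = 6). In enterocytes the lowest library was at 0, the median at 28.4 CPM and the highest, again library 1, at 197 CPM (45.4 ± 64.6 CPM, n = 8). The ranges of both clusters overlapped. Ssk averaged 19.9 ± 21.2 CPM in fat body cluster 15, 7.61 ± 10.3 CPM in stem cells and 1.58 to 3.14 CPM in the disc clusters.

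Tsp2A (X, 1346553 to 1348143, plus strand) encodes a tetraspanin and overlaps MTPAP on the opposite strand. In cluster 24 it ranged from 0 over a median of 59.7 CPM to 180 CPM (71.1 ± 61.5 CPM, n = 6). In enterocytes it ranged from 5.95 CPM over 33.2 CPM to 140 CPM (46.0 ± 43.0 CPM, n = 8), and in stem cells from 0 over 37.5 CPM to 87.6 CPM (40.2 ± 24.8 CPM, n = 8). All 3 ranges overlapped. Nuclei that held Tsp2A occurred in 7 of 8 stem cell libraries, against 4 for Ssk and 2 for mesh. Fat body cluster 15 averaged 18.7 ± 18.6 CPM and hemocytes 8.73 ± 4.32 CPM.

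A further gene of the smooth junction, hoka (3L, 4898900 to 4900869, plus strand), listed in the table as CG13704, encodes a small transmembrane protein. Its highest cluster was the stem cells, from 52.3 CPM over a median of 93.4 CPM to 202 CPM (105 ± 55.8 CPM, n = 8). Enterocytes ranged from 0 over 23.4 CPM to 74.7 CPM and so overlapped the stem cells only at their low end, and cluster 24 stood at 52.7 ± 55.1 CPM (n = 6).

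**Figure D2:**
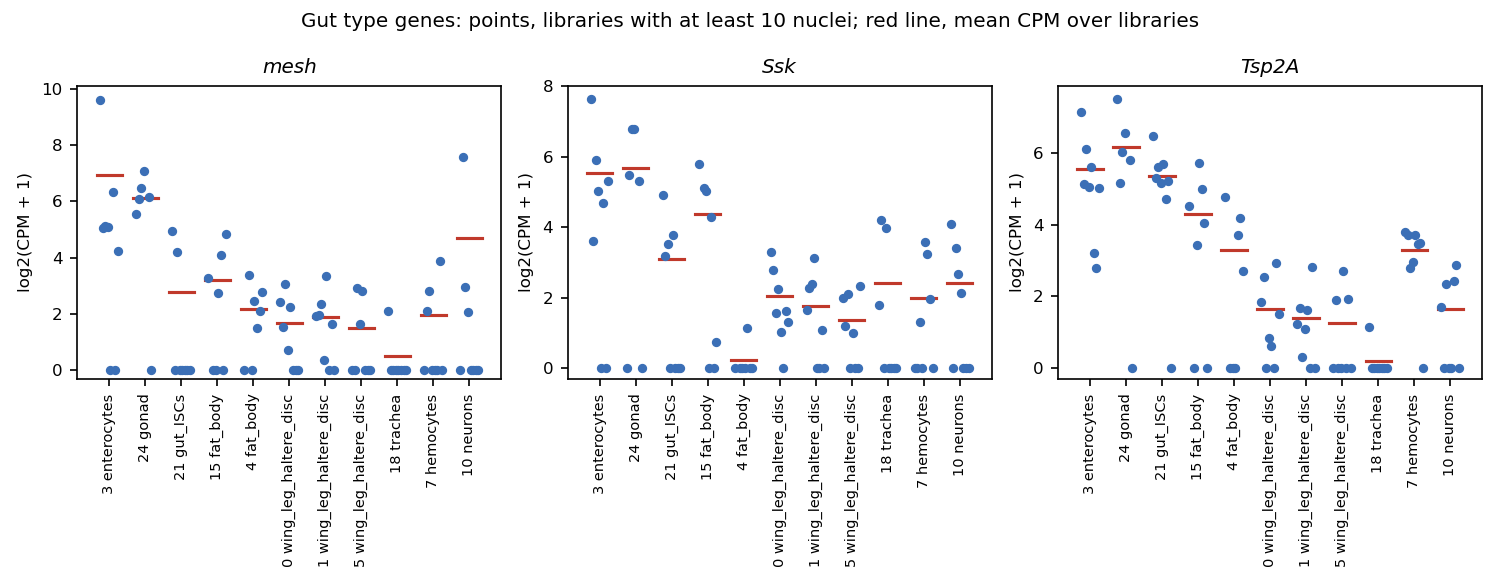
Level of mesh, Ssk and Tsp2A as log2(CPM + 1) in 11 clusters, with a point for each library of at least 10 nuclei and a red line at the mean CPM. For Ssk, libraries at 0 lie beside libraries of up to 197 CPM in cluster 3 and 111 CPM in cluster 24, and the mean of mesh in enterocytes lies above 7 of its 8 points.

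The order of the clusters at the top was not resolved for these genes. In an exact two-sided sign-flip permutation test on log2(CPM + 10), paired by library, enterocytes differed from cluster 24 for mesh by 0.03 ± 1.996 (SD, n = 6, higher in 2 libraries, lower in 3 and equal in 1, p = 0.906). Cluster 24 exceeded enterocytes for Tsp2A by 0.46 ± 0.93 (higher in 4 of 6, exact p = 0.344) and differed from them for Ssk by -0.04 ± 2.19 (higher in 4 of 6, exact p = 0.969). With 6 libraries such a test cannot go below 0.0312. Both clusters of each such test, here and below, were picked by their means in the same libraries, so its p-value is descriptive. Of the 27 pairs of neighbours in each gene's order of clusters, 0 differed by more than the SD of their paired difference.

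Each cluster was next set against all other nuclei in a fit of edgeR's quasi-likelihood model to counts summed by library. A gene was called when its Benjamini-Hochberg adjusted p was below 0.05 and its log2 fold change at least 0.54 in size. The clusters were made from the same counts, so these fits describe the clusters and are not independent evidence for them. The filter on low counts kept 21 of the 84 combinations of gut type gene and cluster. It takes the sums of the cluster and of the rest together, so passing need not follow the counts of the cluster alone. The filter kept 1 of the 3 genes in neuron cluster 25, where 4 nuclei held any of them, and 0 in disc cluster 0, where 27 did. For Ssk passing did follow the level. That gene was kept only in clusters 3 and 24, where its means were highest, so its calls there give no support of their own. Among the 21 combinations 8 were called higher and 0 lower, where 14.7% of all genes and clusters were higher and 35.9% lower. Nothing is read from that contrast because of the filter. Without the filter 13 combinations were called lower (26% over all genes), and 19 with DESeq2 (27.2%).

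The 8 calls were all 3 genes in enterocytes, where 6.36% of genes were called higher, all 3 in cluster 24 (17.8%), and Tsp2A in stem cells (11.1%) and in fat body cluster 15 (21.9%). In enterocytes the log2 fold change was 5.04 ± 0.82 for mesh (SE, adjusted p = 0.00023, higher in 6 of 8 libraries), 3.73 ± 0.63 for Ssk (adjusted p = 0.000289, 6 of 8) and 3.28 ± 0.50 for Tsp2A (adjusted p = 9.65e-05, 8 of 8). Without library 1 the value for mesh was 2.69, still called. Without library 4 the filter removed Ssk.

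In cluster 24 the log2 fold change was 2.12 ± 0.72 for mesh (adjusted p = 0.0284), 2.59 ± 0.66 for Ssk (adjusted p = 0.00548) and 2.59 ± 0.44 for Tsp2A (adjusted p = 0.000167). The call of mesh was lost without library 2, 3, 4 or 6 (adjusted p of 0.0704 to 0.174) and without the count filter (1.89, adjusted p = 0.0779), and that of Ssk without library 3 (adjusted p = 0.061) or library 4, where the filter removed the gene. Tsp2A was at 2.41 ± 0.48 in stem cells (adjusted p = 0.000274, higher in 7 of 8 libraries) and at 2.12 ± 0.62 in cluster 15 (adjusted p = 0.00833, higher in 4 of 7). In library 5 of cluster 15, 1 nucleus held 7.62 of the 11.4 Tsp2A counts. The 5 digestive enzyme genes all ranked first or second in cluster 15 (0.259% of its counts). The Malpighian tubule genes Uro, Irk3 and Irk2 ranked 1 (67.2 CPM), 2 (4.41 CPM) and 3 (37.0 CPM) there. The part of either tissue's RNA in the Tsp2A value of cluster 15 was not tested.

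In single nuclei the gut type genes were sparse. A nucleus is said to hold a gene at a corrected count of at least 0.5. Of 2055 enterocyte nuclei, 4.09% held mesh (95% Wilson interval 3.31 to 5.03%), 3.55% Ssk and 3.21% Tsp2A. In disc cluster 0, a tissue of the pleated type, the shares were 0.289%, 0.26% and 0.231%, at a median depth of 1071 counts against 636 in enterocytes. Cluster 24 had the highest shares, 8.54% for mesh, 7.54% for Ssk and 7.29% for Tsp2A, at a median of 858 counts. In stem cells, the deepest of these at a median of 1429 counts, 6.64% of nuclei held Tsp2A and 0.885% mesh.

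With every nucleus thinned to 300 counts, mesh was held by 2.08% of 1974 enterocyte nuclei, by 2.51% of 398 nuclei of cluster 24 and by 0 of 3454 nuclei of disc cluster 0, which allows a share of up to 0.0869% (3 nuclei). Tsp2A was held by 0.912% in enterocytes, 2.51% in cluster 24, 0.885% in stem cells and 0.0869% in disc cluster 0, and in the fat body by 0.142% of 703 nuclei of cluster 15 and 0.506% of 1581 of cluster 4. Intervals and limits of this kind cover counting error only.

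Of the 593 nuclei that held a gut type gene, 48 held at least 2 and 7 held all 3. Enterocytes gave 24 of the 48, of which 16 came from library 1 and 7 from library 4, and cluster 24 gave 13.

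Enterocyte nuclei were unequal between libraries, and so were the disc genes in them. Libraries 2, 3, 5 and 7 gave 21 to 41 enterocyte nuclei each, and 6 disc genes took 0.619 to 1.15% of their counts, against 1.38 to 1.87% in the disc clusters. In libraries 1, 4, 6 and 8, with 67 to 1508 nuclei, the same genes took 0.0256 to 0.273%. Nrg moved with them, at 1229.7 to 1331 CPM in the former libraries and at 91.8 to 603 CPM in the latter. The part of disc RNA in the enterocyte values was not tested. In the 4 libraries with at least 50 enterocyte nuclei, an alternative chosen after seeing the data, mesh (6.06 ± 1.10), Ssk (3.89 ± 0.74) and Tsp2A (3.45 ± 0.70) were again called higher in enterocytes against the rest, where 8.33% of genes were higher and 8.89% lower.

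**Figure D3:**
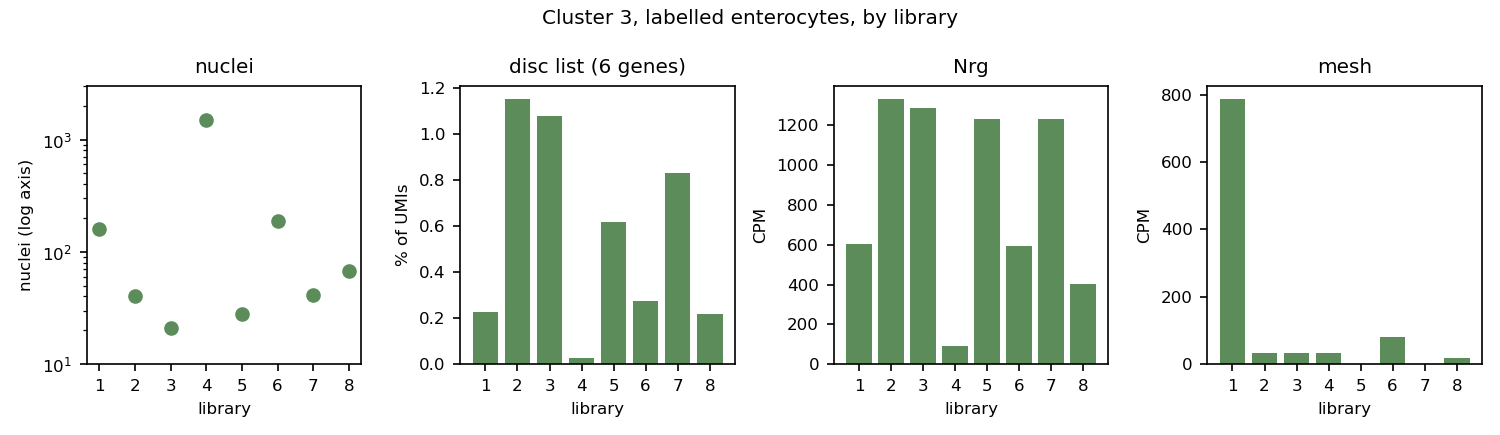
Enterocyte nuclei (log axis), percent of counts from 6 disc genes, Nrg level and mesh level (both in CPM) in each of the 8 libraries. Libraries 2, 3, 5 and 7 have the fewest nuclei, the most disc RNA and Nrg at 1229.7 to 1331 CPM, library 4 has 1508 nuclei and the lowest Nrg, and mesh is highest in library 1.

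The ectodermal type was not confined to a few clusters. In their median cluster its 7 genes stood between 21.6 CPM (sinu) and 1234 CPM (Nrg). All 7 genes passed the filter in the fits of all 28 clusters. The filter also takes the sums of the rest, so passing says nothing about spread over tissues. Of the 7, scrib was the only one with its highest mean in a cluster named disc or trachea. The adhesion proteins come first, then the claudin-like proteins and the cytoplasmic ones.

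Nrx-IV (3L, 12146519 to 12156990, plus strand, overlapping CG32099 on the same strand) encodes Neurexin IV, a Caspr-type transmembrane receptor. It was highest in hemocytes, the blood cells, from 160.0 CPM over a median of 203 CPM to 271 CPM (204 ± 39.8 CPM, n = 8). Every hemocyte library exceeded every library of the disc clusters, which averaged 44.5 to 49.5 CPM. Cluster 24 followed at 163 ± 108 CPM (n = 6), then mixed cluster 27 at 149 ± 130 CPM (n = 3), neuron cluster 17 at 114 ± 14.6 CPM and stem cells at 107 ± 27.9 CPM. Trachea stood at 33.8 ± 14.4 CPM and fat body cluster 13, the lowest, at 5.97 ± 4.41 CPM.

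Nrg (X, 8517373 to 8555170, plus strand, overlapping PIP82 on the opposite strand) encodes Neuroglian, an adhesion molecule of the L1 family that is also at work in axons and glia. Gut stem cells had the highest level, from 3718 CPM over a median of 5186 CPM to 5987 CPM (5144 ± 690.0 CPM, n = 8). Eye disc cluster 26 came next at 3054 ± 524 CPM, with a highest library of 3870 CPM, so the ranges touched only through library 5 of the stem cells. Paired by library, stem cells were higher by 0.76 ± 0.25 on the log2(CPM + 10) scale in 8 of 8 libraries (exact sign-flip permutation test, p = 0.00781, the smallest it can give). Both clusters were picked as the highest by these same values, so that p-value is not an independent test. The disc clusters stood at 1523 to 1555 CPM, hemocytes at 2292 ± 240.0 CPM and fat body clusters 4 and 13 at 27.1 and 42.3 CPM.

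The same contrast held per nucleus. Thinned to 300 counts, 65.5% of stem cell nuclei held Nrg, against 50.4% in eye disc cluster 26 and 45.7% in neuron cluster 17. The share was 37.2% in disc cluster 0, 36.1% in hemocytes, 3.75% in enterocytes and 0.759% in fat body cluster 4.

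Lac (2R, 12453190 to 12465630, plus strand) encodes Lachesin, an immunoglobulin-domain protein tethered to the membrane by a lipid anchor. It was highest in cluster 24, from 199.7 CPM over a median of 264 CPM to 393 CPM (274 ± 63.9 CPM, n = 6), followed by mixed cluster 22 at 193 ± 58.6 CPM and neuron cluster 6 at 182 ± 47.6 CPM. Cluster 24 exceeded cluster 22 by 0.66 ± 0.36 on the log2 scale in 6 of 6 libraries (exact permutation test, p = 0.0312, the smallest possible). Hemocytes, the top cluster of Nrx-IV and sinu, were near the bottom for Lac at 15.9 ± 11.5 CPM. Neuron clusters differed widely, down to 16.9 ± 19.2 CPM in cluster 25.

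The claudin-like gene kune (2R, 5671741 to 5672800, plus strand) had its highest mean in mixed cluster 27, 252 ± 166 CPM, from 3 libraries with 10, 26 and 10 nuclei. That lead was not firm, since over all libraries with at least 1 nucleus the mean was 94.6 CPM, under the 124 ± 63.4 CPM of mixed cluster 16. Among named tissues hemocytes (75.0 ± 20.5 CPM), stem cells (66.5 ± 43.8 CPM) and cluster 24 (61.6 ± 45.3 CPM) had the highest means and overlapped each other. The disc clusters averaged 25.8 to 35.6 CPM.

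The other claudin-like gene, sinu (3L, 5559470 to 5561598, minus strand), was highest in hemocytes, from 53.2 CPM over 70.6 CPM to 96.9 CPM (71.7 ± 14.8 CPM, n = 8). Stem cells ranged from 35.8 CPM over 71.3 CPM to 88.5 CPM (65.3 ± 19.5 CPM, n = 8). These differed by 0.15 ± 0.59 on the log2 scale, within their spread (higher in 5 of 8 libraries, exact permutation test, p = 0.484). Trachea stood at 32.6 ± 15.4 CPM and the disc clusters at 25.8 to 27.3 CPM.

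The gene cora (2R, 19229063 to 19243751, plus strand) encodes Coracle, the fly protein 4.1, which binds the tail of Neurexin IV inside the cell. Stem cells ranged from 252 to 401 CPM (315 ± 54.6 CPM, n = 8) and hemocytes from 278 to 346 CPM (315 ± 26.005 CPM, n = 8), with a paired difference of -0.01 ± 0.26 on the log2 scale (exact permutation test, p = 0.898). Myoblasts at 247 ± 43.9 CPM and the disc clusters at 218 to 233 CPM followed. Fat body clusters 4 and 13 were the lowest at 10.5 ± 9.89 and 10.0 ± 6.66 CPM.

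The scaffold gene scrib (3R, 26536350 to 26604051, plus strand, overlapping lncRNA:CR46084 on the opposite strand) encodes a regulator of basolateral polarity. Ectodermal epithelia led, with eye disc cluster 14 from 1045 CPM over 1163 CPM to 1658 CPM (1207 ± 190.2 CPM, n = 8), eye disc cluster 26 at 1065 ± 279 CPM and trachea at 865 ± 119.6 CPM. The eye disc clusters differed by 0.21 ± 0.52 on the log2 scale (higher in 5 of 8 libraries, exact permutation test, p = 0.297). The disc clusters stood at 649 to 686 CPM, stem cells at 649 ± 107 CPM and fat body clusters 4 and 13 at 7.87 and 5.00 CPM.

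**Figure D4:**
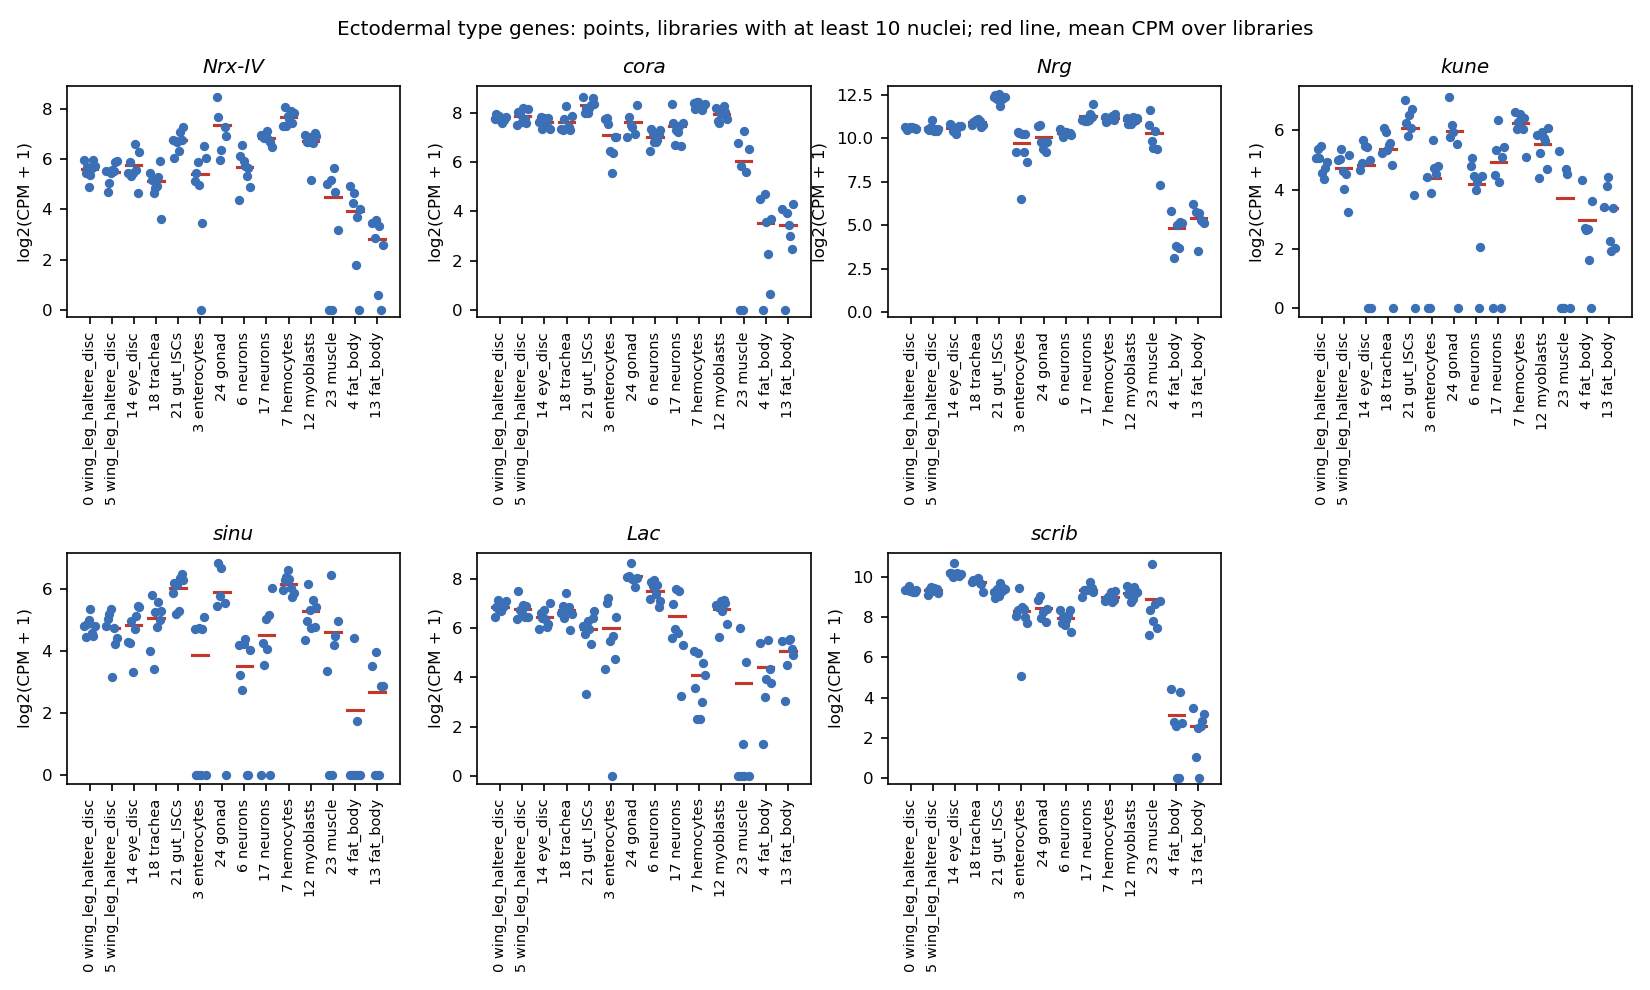
Level of the 7 ectodermal type genes as log2(CPM + 1) in 14 clusters, with a point for each library of at least 10 nuclei and a red line at the mean CPM. Fat body clusters 4 and 13 are lowest for cora, Nrg and scrib, Nrg in stem cells lies above every other cluster shown, and Lac is low in hemocytes, where Nrx-IV and sinu are high.

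Most neighbours in these orders could not be separated. They differed by more than the SD of their paired difference in 3 of 27 pairs for cora, in 2 of 27 for each of Nrx-IV, Nrg, Lac and scrib and in 0 for kune and sinu. Over the 10 exact permutation tests of a gene's first against its second cluster, none had an adjusted p below 0.05, and the lowest was 0.0781 for Nrg.

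Against the rest of the nuclei, the ectodermal type gave 27 calls higher (13.8%) and 66 lower (33.7%) in 196 combinations of gene and cluster, close to the 14.7% and 35.9% of all genes. Hemocytes gave the most calls higher, 5 of 7, where 19.4% of all genes were called higher. Nrx-IV was higher by 1.995 ± 0.14, sinu by 1.56 ± 0.17, Nrg by 1.01 ± 0.14, cora by 0.97 ± 0.12 and kune by 0.94 ± 0.19 on the log2 scale, and Lac was lower at -2.73 ± 0.31, as were 32.2% of all genes (edgeR adjusted p from 7.31e-10 for Nrx-IV to 0.000286 for kune). The hemocyte markers Hml, NimC1 and Pxn ranked first in the same cluster.

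Stem cells had 3 of 7 called higher, where 11.1% of all genes were: Nrg at 1.84 ± 0.13, sinu at 0.95 ± 0.23 and cora at 0.55 ± 0.13. The value of cora lay at the fold limit and fell under it with DESeq2's size factors (0.47) and without library 1, 5, 6, 7 or 8 (0.43 to 0.54). Lac was lower there at -1.17 ± 0.25, as were 34% of all genes. In fat body clusters 4 and 13 all 7 were lower, beside 48.6% and 52% of all genes, by the least for Lac in cluster 13 (-1.03 ± 0.29) and by the most for scrib in cluster 13 (-5.78 ± 0.43).

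In each of the disc clusters 0, 1 and 5 the only member called higher was scrib, at 0.73 ± 0.12, 0.80 ± 0.13 and 0.60 ± 0.13, where 22.6%, 20.4% and 17.9% of all genes were. Trachea, with 10.1% of all genes higher, had scrib at 1.07 ± 0.16 and Nrg at 0.70 ± 0.15 higher and Nrx-IV lower at -0.76 ± 0.23, as were 26.3% of all genes. Enterocytes, with 7.69% of all genes lower, had only kune lower at -1.11 ± 0.36 (adjusted p = 0.042), a call lost with the library as a block (adjusted p = 0.112), with DESeq2's size factors (-0.60, adjusted p = 0.235), with at least 50 nuclei (-1.03, adjusted p = 0.089) and without library 1, 2, 4, 6 or 8 (adjusted p of 0.0519 to 0.102).

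Cluster 24 had Lac higher (0.82 ± 0.23) and Nrg (-1.08 ± 0.31), scrib (-1.20 ± 0.27) and cora (-0.67 ± 0.24) lower, where 17.8% of genes were higher and 25.8% lower. The mean CPM of cora was nevertheless higher in cluster 24 (194 CPM) than in the rest (161 CPM), and with DESeq2's size factors the calls of cora (-0.25) and Nrg (-0.63) were lost. They were also lost without single libraries, that of cora without library 2, 3, 4 or 6 (adjusted p of 0.0523 to 0.122) and that of Nrg without library 3 or 6 (adjusted p of 0.0505 and 0.053). The call of Lac was lost without library 1 (0.57, adjusted p = 0.085) or library 3 (0.60, adjusted p = 0.0893) and without the count filter (0.54, adjusted p = 0.153).

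Enterocytes were then compared directly with the wing, leg and haltere discs, an endodermal with an ectodermal epithelium. All 3 gut type genes were higher in enterocytes, and Nrg, Lac and scrib of the ectodermal type were lower. Since the filter on low counts removed the gut type, its values come from the same fit without that filter, in which 26.6% of all genes were called higher, 24.3% lower and the median gene stood at 0.04.

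The lowest, median and highest library for mesh were 0, 32.7 and 787 CPM in enterocytes and 0, 1.38 and 6.39 CPM in discs, and its log2 fold change was 5.21 ± 1.01 (adjusted p = 0.000472 by edgeR, higher in 6 of 8 libraries). Ssk, with 2.53 CPM in discs on average, was higher by 3.77 ± 0.64 (adjusted p = 6.5e-05, 6 of 8). Tsp2A was higher by 3.98 ± 0.60 (adjusted p = 1.4e-05, 8 of 8) and was the one member of the gut type whose enterocyte libraries (from 5.95 CPM) did not overlap the discs (up to 5.51 CPM). hoka was higher by 3.41 ± 0.53. In the 4 libraries with at least 50 enterocyte nuclei, where 29.8% of genes were called higher, mesh (7.60 ± 1.32) and Ssk (4.80 ± 0.83) passed the filter and were higher in 4 of 4. With discs at 2.36 and 2.53 CPM on average over all libraries, both passed through the enterocyte sums, so these values add no support.

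All 7 ectodermal type genes passed the filter, and 3 were called lower, beside 29.9% of all genes lower and 30.9% higher. Nrg ranged from 91.8 to 1331 CPM in enterocytes and from 1456 to 1717 CPM in discs with no overlap, a log2 fold change of -1.05 ± 0.40 (adjusted p = 0.0279, edgeR). scrib ranged from 32.8 to 705 CPM against 619 to 720.3 CPM, with only library 3 of the enterocytes inside the disc range (-1.28 ± 0.37, adjusted p = 0.00577). Lac overlapped more, from 0 to 149 CPM against 101 to 139 CPM (-0.99 ± 0.35, adjusted p = 0.0177). In the 4 libraries with at least 50 enterocyte nuclei, where 25.5% of genes were called lower, Nrg (-2.01 ± 0.65), scrib (-1.77 ± 0.61) and Lac (-1.23 ± 0.42) were lower as well.

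The other 4 were not called. cora stood at -0.66 ± 0.29 (adjusted p = 0.0521), kune at -0.52 ± 0.34, Nrx-IV at -0.09 ± 0.32 and sinu at 0.14 ± 0.35, although its CPM was lower in 6 of 8 enterocyte libraries. In the fit without the filter cora (-1.49), kune (-1.39) and Nrx-IV (-0.94) were called lower as well. The median of the 7 was -0.66 with the filter, beside -0.10 for all genes. DESeq2's size factors moved the median of all genes from -0.10 to 0.30 and the share of calls that were higher from 50.9% to 64.9%, and with them Nrg (-0.78, adjusted p = 0.0665) and Lac (-0.59, adjusted p = 0.171) were no longer called. With the library as a block, Nrg was at -1.24 (adjusted p = 0.0535). The call of Nrg was also lost without library 1, 4, 6 or 8 (-0.64 without library 4), and that of Lac without library 1, 6 or 7, while scrib kept its call in each of these fits.

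Enterocytes and stem cells are both named as gut cells, and mesh and Ssk were higher in enterocytes. Only 1208 genes passed the filter, and none of the gut type did. Without it, 26.9% of genes were called higher in enterocytes and 4.42% lower, with a median gene of 0.93. mesh was higher by 4.68 ± 1.23 (adjusted p = 0.00903 by edgeR, 6 of 8 libraries) and Ssk by 3.04 ± 0.71 (adjusted p = 0.000381, 6 of 8). Tsp2A, at 0.65 ± 0.56, was under the median gene and not called (adjusted p = 0.366, higher in 3 of 8). hoka lay on the other side at -1.21 ± 0.54 (adjusted p = 0.0725) and had the higher CPM in stem cells in 8 of 8 libraries.

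Of the ectodermal type 3 genes passed the filter, and Nrg was called lower, beside 16.1% of all genes lower and 27.7% higher. Its enterocyte libraries (91.8 to 1331 CPM) lay far under the stem cell libraries (3718 to 5987 CPM), with a log2 fold change of -2.03 ± 0.36 (adjusted p = 0.000294). In the 2 libraries with at least 50 nuclei of each kind, where 5.4% of genes were called lower, the value was -3.45 ± 1.79 and not called (adjusted p = 0.175). scrib (-0.47 ± 0.25) and cora (-0.12 ± 0.30) were not called. For cora and sinu the CPM ranges did not overlap, at 45.9 to 220.4 against 252 to 401 CPM and at 0 to 33.1 against 35.8 to 88.5 CPM.

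Ectodermal epithelia (discs, eye discs and trachea summed) were next set against tissues of mesodermal origin (fat body, hemocytes, myoblasts and muscle summed). Of the 7 ectodermal type genes 2 were higher in the epithelia and 1 was lower, beside 29.2% and 35.3% of all genes. scrib was at 671 to 784 CPM in the epithelia and 168 to 508 CPM in the mesodermal tissues, higher by 1.19 ± 0.13 (adjusted p = 2.97e-07, edgeR). Lac was at 95.3 to 131 CPM against 15.9 to 57.1 CPM, higher by 1.07 ± 0.21 (adjusted p = 0.000166). Neither gene's ranges overlapped.

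Nrx-IV was lower in the epithelia at -1.04 ± 0.16 (adjusted p = 1.54e-05), with 36.8 to 56.6 CPM against 44.8 to 189 CPM. cora (0.31 ± 0.10), Nrg (0.31 ± 0.12), kune (-0.46 ± 0.17) and sinu (-0.49 ± 0.17) did not reach the fold limit. The CPM of sinu was nevertheless higher in the epithelia in 5 of 8 libraries. Its value passed the limit without library 1 (-0.544), 5 (-0.569) or 7 (-0.547). The mesodermal sum joins hemocytes, the top tissue for Nrx-IV and sinu, with fat body clusters 4 and 13, where all 7 were called lower, and fat body cluster 15, which ranked 16 of the 28 for Lac. Leaving hemocytes out, a choice made after seeing the data, removed the call of Nrx-IV (-0.20 ± 0.19, adjusted p = 0.343) and added cora (0.88 ± 0.15) and Nrg (0.71 ± 0.22) to scrib (1.47 ± 0.22) and Lac (0.60 ± 0.19) as higher in the epithelia, where 36.5% of all genes were.

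The gut type stayed under 10 CPM on average on both sides and did not pass the filter. Without the filter 27.2% of genes were called lower in the epithelia, and Tsp2A was among them at -2.39 ± 0.52 (adjusted p = 0.000509, 1.69 against 8.55 CPM, lower in 8 of 8 libraries), while mesh (-0.73 ± 0.59) and Ssk (-1.03 ± 0.58) were not called.

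Neurons use Neurexin IV and Neuroglian at contacts with glia and along axons, and the 5 neuron clusters together were compared with the same epithelia. None of the 7 ectodermal type genes was called higher in neurons and 2 were lower, beside 17% and 19.5% of all genes. scrib was at 383 to 538 CPM in neurons and 671 to 784 CPM in the epithelia (-0.65 ± 0.08, adjusted p = 8.78e-07, edgeR), and sinu at 7.83 to 25.5 CPM against 23.2 to 36.0 CPM (-0.88 ± 0.22, adjusted p = 0.00262). The ranges of scrib were apart and those of sinu overlapped slightly.

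Nrg differed by -0.09 ± 0.06 (adjusted p = 0.302), from 1268 to 1863 CPM in neurons and from 1548 to 1817 CPM in the epithelia. Nrx-IV at 0.50 ± 0.12 (adjusted p = 0.00178) and cora at -0.51 ± 0.08 (adjusted p = 3.77e-05) lay just under the fold limit. Among the neuron clusters Lac varied the most, from 16.9 CPM in cluster 25 to 182 CPM in cluster 6, where it was higher than in the rest by 0.97 ± 0.19 on the log2 scale (16.5% of all genes were). The gut type did not pass the filter, and the value of mesh without it, 2.21 ± 0.82 (adjusted p = 0.0589), includes the nucleus of library 2 described above.

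**Figure D5:**
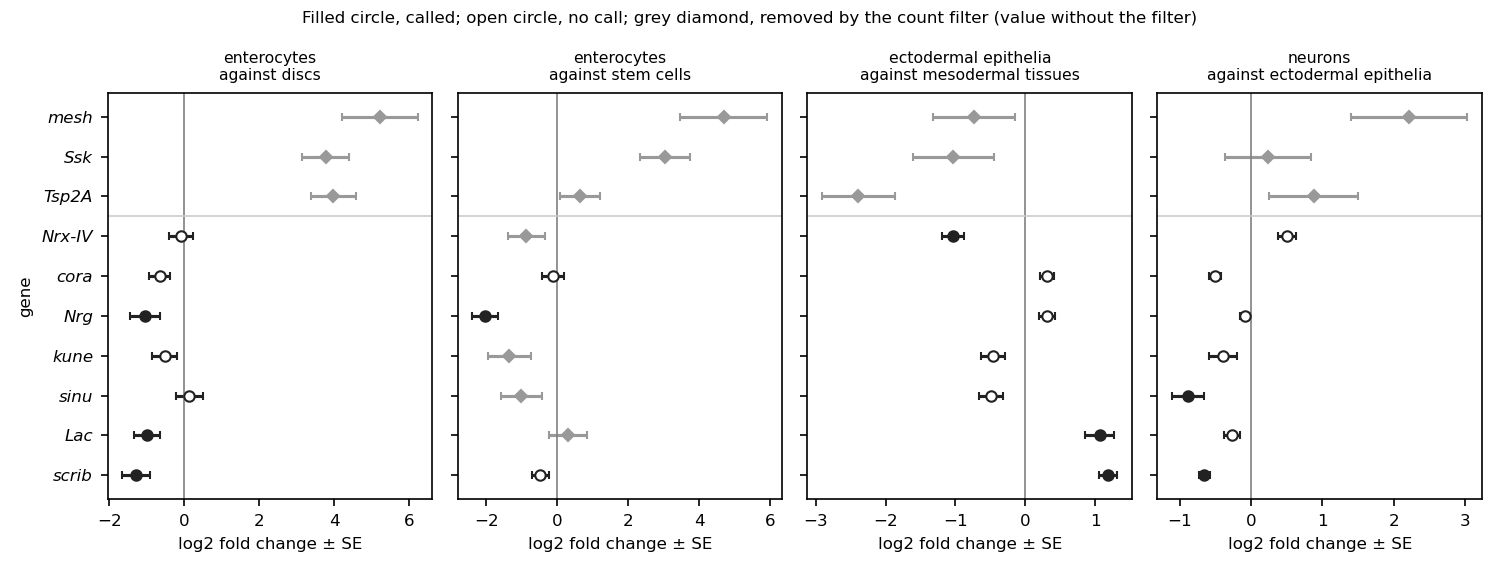
Log2 fold change with its SE for the 10 genes in the 4 direct comparisons, positive where the first named group is higher. Filled circles are called, open circles are not, and grey diamonds are genes that the count filter removed, with their value from the fit without it. The gut type lies to the right in both comparisons of enterocytes, Tsp2A only slightly against stem cells, and in epithelia against mesodermal tissues scrib and Lac lie opposite to Nrx-IV.

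Over the 28 clusters, genes of a type varied together more than genes of different types. Pearson's r of log2(CPM + 10) had a median of 0.84 over the 3 pairs within the gut type (0.73 to 0.85), of 0.56 over the 21 pairs within the ectodermal type (0.08 to 0.95) and of 0.08 over the 21 pairs between types (-0.10 to 0.39). The closest pair was Nrg with scrib at 0.95, and Lac stood apart from its type, with r between 0.08 (Nrg) and 0.32 (kune). Clusters share their libraries and differ in depth, so these values are descriptions of 28 clusters.

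Among genes with at least 200 counts, those most like the mean of the gut type over clusters were mex1 (r = 0.92), CG9568 (0.90), CG15152 (0.87), CG9380 (0.87) and Acbp4 (0.83), each with clusters 3 and 24 as its highest. hoka ranked 12 of 7777 genes (r = 0.79). Those most like the ectodermal type were eIF4G1 (0.92), Eb1 (0.92), ND-49 (0.91), Clic (0.91) and CCT2 (0.91), each with hemocytes or stem cells as its highest cluster. With Spearman's rho in place of r, 0 of the first 5 and 1 of the second 5 were again among the top 5.

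Other junction genes give the setting for the enterocytes against discs. Of all genes tested 30.9% were higher and 29.9% lower. Of 11 further genes listed for the pleated junction 1 was higher, nrv1 (1.39 ± 0.32), which encodes a subunit of the sodium pump. Lower were 3, the scaffold gene vari (-1.77 ± 0.35), yrt (-1.23 ± 0.33) and pasi2 (-0.84 ± 0.32), and the median over the 11 was -0.45. Of 4 genes for its assembly crim was higher (0.92 ± 0.30) and bou lower (-1.43 ± 0.36), and of 2 tested genes of tricellular junctions M6 was lower (-1.13 ± 0.41).

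The basolateral genes Fas3 (-1.86 ± 0.63), dlg1 (-1.37 ± 0.35) and l(2)gl (-1.05 ± 0.42) were all lower in enterocytes, beside 29.9% of all genes. So were 7 of 12 genes of the adherens junction and the apical domain, with the largest values for ed (-2.12 ± 0.60), shg, the fly E-cadherin (-1.59 ± 0.45), aPKC (-1.56 ± 0.42) and pyd (-1.504 ± 0.55), and a median of -1.20 beside -0.66 for the 7 ectodermal type members. In epithelia against mesodermal tissues 9 of these 12 were higher and 0 lower, beside 29.2% and 35.3% of all genes, with a median of 1.27, beside 0.31 for the 7 members and -0.04 for all genes. The difference between the lists was not tested.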

How the data were processed

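Nuclei of 8 pools of w1118 larvae were sorted and sequenced with 10x Genomics 3′ chemistry. Per the study's methods, the authors aligned and counted each library with Cell Ranger 7.1.0 at a fixed number of barcodes on BDGP6, subtracted ambient RNA with DecontX, removed nuclei with few genes or counts, removed predicted doublets with DoubletFinder and clustered the nuclei after batch correction with Harmony. The deposited values are therefore estimated counts that need not be whole (expected counts), and 13.8% of the values above 0 were under 0.5. No doublet caller was run again. Ambient subtraction can lower a rare gene and can leave free RNA behind, and neither was measured here.

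Counts were summed per cluster and library (at least 10 nuclei), rounded, and fitted with edgeR 4.0.16 (R 4.3.3; TMM scaling, filterByExpr, robust quasi-likelihood F test, Benjamini-Hochberg adjustment over all genes tested), with calls at an adjusted p below 0.05 and a log2 fold change of at least 0.54 in size. The fit was also run on simulated counts with a fixed spread, for enterocytes against discs and epithelia against mesodermal tissues only. Those runs used genes left by the filter, so they do not cover the gut type. Levels used pandas 2.3.3, exact tests scipy 1.17.1 and figures matplotlib 3.10.9. Levels within 0.01 CPM of each other were counted as equal. Library depths were 3815620 to 6488760 counts. Positions come from Ensembl's BDGP6 annotation, and hoka was matched through a RefSeq synonym.

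Alternatives were DESeq2's size factors, DESeq2 1.42.0, no count filter, nuclei with at least 200 genes, barcodes of 1 library, rounding per nucleus, leaving out each library, and the library as a block. The block is warranted because both sums of a library come from 1 pool of larvae. The fits reported do not use it, so their calls leave this pairing out. Deviations of the same library had a median correlation of 0.05, 0.04, 0.14 and 0.16 in the 4 direct comparisons. Fits with at least 50 nuclei, fits of cluster 24 without each library, the limit of 0.5 for holding a gene and the fit without hemocytes were chosen after seeing the data.

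All 10 members are named. Of each other list the called genes with the largest change between enterocytes and discs are named, up to 4 a list, and the 5 genes most like each type. The members and lists were chosen with earlier results of these data known. Nothing in the labels says that the pools came from separate cultures, so p-values measure the spread between these pools.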

Additional observations from a re-analysis of the deposited data

Results flagged for a closer look

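Of 49 sets of 8 libraries, or fewer, that were screened for a library far from the others, 10 held one, and chance alone gives about 1 in 20. Library 1 stood out for mesh in enterocytes, at 787 CPM against a median of 32.7 CPM. Library 5 was low for Nrg in stem cells, at 3718 CPM against a median of 5186 CPM, and library 4 high for scrib in eye disc cluster 14, at 1658 CPM against 1163 CPM.

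Library 4, with most enterocyte nuclei, was far from the others in 3 log2 ratios of enterocytes. Against discs it stood at -4.08 for Nrg (median -0.81) and at -4.00 for scrib (median -1.17), and against stem cells at -3.69 for scrib (median -1.16). Its enterocytes also held the least disc RNA, 0.0256% of counts, and the part of that in these ratios was not tested.

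In epithelia against mesodermal tissues, library 3 stood at 2.24 for Lac (median 1.10). In neurons against epithelia, library 2 stood at 2.45 for mesh (median 0.24), which holds the nucleus with 41.4 counts. Library 5 stood at -1.05 for cora (median -0.52) and library 8 at 0.27 for Nrg (median -0.21) in the same comparison.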

How the results depend on the processing

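Of the values of single members under alternatives, 758 kept their direction and their side of the threshold, 26 passed it only under the alternative and 55 only in the fit reported. The other 23 changed sign, and 0 of these was called in either fit. In enterocytes against discs they were Nrx-IV with DESeq2's size factors (0.31) and DESeq2 (0.35), and sinu without the count filter (-0.80), with the block (-0.33) and with at least 50 nuclei (-0.038). They were cora with rounding per nucleus (0.071) against stem cells, and kune (0.056) and sinu (0.20) without hemocytes in epithelia. In cluster 3 they were Nrx-IV with DESeq2 (0.063), cora with its size factors (0.079) and DESeq2 (0.20), and sinu with its size factors (0.38), DESeq2 (0.41), rounding (0.17) and at least 50 nuclei (0.096). In cluster 24 they were Nrx-IV with at least 50 nuclei (-0.13) and kune with DESeq2's size factors (0.35) and DESeq2 (0.34). Leaving out 1 library gave -0.29 to 0.12 for Nrx-IV and -0.10 to 0.34 for sinu against discs, and -0.025 to 0.69 for Nrx-IV and -0.44 to 0.014 for kune in cluster 24. With a pseudocount of 1, mesh in enterocytes against cluster 24 stood at -0.026. Counts of genes moved more. Without the count filter 3318 genes were higher and 3032 lower in enterocytes against discs, 3202 and 527 against stem cells, 2730 and 3419 in epithelia against mesodermal tissues, 1399 higher in neurons, and 1287 and 1385 in cluster 3. DESeq2 called 4859 higher in enterocytes against discs, 1838 higher and 440 lower against stem cells, 3359 lower in epithelia, 1481 higher in neurons, 4082 higher in cluster 3, and 3369 higher and 1301 lower in cluster 24.

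DESeq2's size factors gave 1251 higher and 296 lower in cluster 3 and 2163 higher in cluster 24, and rounding per nucleus 334 lower in cluster 3. The library as a block gave 926 higher in enterocytes against discs and changed the calls of Nrg there, of kune in cluster 3 and of cora in cluster 24 (adjusted p = 0.066). At least 50 nuclei left 124 lower in enterocytes against stem cells. Leaving out 1 library gave 904 to 1647 higher and 896 to 1582 lower in enterocytes against discs and 279 to 513 higher in cluster 3, each lowest without library 4, and 852 to 1383 higher in cluster 24, with 852 without library 6 and 854 without library 1.

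Gut type genes called lower in a cluster, 0 in the fit reported, numbered 13 without the filter, 1 with the block and 19 with DESeq2. Of the 5 genes most like the gut type, 0 stayed with Spearman's rho and 2 with a pseudocount of 1, and for the ectodermal type 1 and 3. Cluster 27 with barcodes of 1 library was not run, since 1 library was left. The gut type rests on 227 to 339 counts a gene over all nuclei.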
